A study of Sus scrofa with 6 samples.

Results

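Interferon-stimulated and interferon-pathway genes were examined in brain tissue of wild boar and of Rongchang, a domesticated pig breed of China. The 44 genes listed were chosen by name, as sensors, signalling factors and induced effectors of the interferon response, and a gene was kept where the deposited table has a row for it. Rows were found for 36 of the 44, among 18225 genes in all. The other 8 (ISG15, IFIT3, OAS1, BST2, IFITM3, IFI6, XAF1 and LGALS3BP) had no matched row and were not analysed here. No member had more than 1 identifier, and RIGI is the gene listed under its older symbol DDX58.

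Interferons are secreted by cells that sense viral nucleic acid. Type I interferons act through a receptor on which the kinases JAK1 and TYK2 phosphorylate STAT proteins. With IRF9, STAT2 takes part in the complex that switches on interferon-stimulated genes, many of which block viral translation, replication or release. In brain, microglia, astrocytes, endothelial cells and neurons all respond to interferon, and a low tonic level of these transcripts is present without infection.

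Messenger RNA was sequenced from brain tissue of 3 wild boars and 3 Rongchang animals, with 1 library for each numbered animal. All 6 animals were 210 days old. No treatment, infection or genetic change is given for either breed, the brain region is not stated, and nothing is said of the animals' housing or origin, so p-values measure only the spread between these libraries. The study, by its title, asks whether the immune response of the brain differs between wild and domesticated animals. Values are FPKM (sequenced fragments per kilobase of transcript, relative to all fragments mapped in the library) as deposited, and sequencing depth is unknown for such values. Wild boar was compared with Rongchang by limma on log2(FPKM + 1), a scale that understates the change of genes with low values. Fold changes are wild boar minus Rongchang. Neuronal transcripts were abundant in every library, with SNAP25 of synapses at 786, 1052 and 1102 FPKM in wild boar and 786, 1022 and 1156 FPKM in Rongchang. Of the members with a row, 28 reached 1 FPKM in 3 or more libraries and were tested, and 1 of these, DHX58, reached that level in the Rongchang libraries only.

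Most of the tested interferon genes had lower values in the wild boars, and none passed the threshold. Of 28 tested, 26 had a log2 fold change below 0, beside 77.9% of all 13152 genes tested. The median fold change was −0.33 over these genes and −0.13 over all genes. After each library was scaled to the same median, 21 of the 28 lay below 0, beside 46.4% of all genes. Adjusted p (limma, Benjamini-Hochberg) ran from 0.784 to 0.985, so 0 of 28 passed, where 1 gene (0.0076%) of all genes tested did. At an unadjusted p under 0.05, 5 of the 28 (17.9%) were lower in wild boar, beside 5.42% of all genes, and 0 were higher, beside 0.578%. These were DHX58, IRF7, USP18, IFIT2 and CMPK2. DHX58 could be tested only through its Rongchang values, and without genes of that kind 4 of 27 (14.8%) were lower, beside 5.18% of all genes. After median scaling 1 of the 28, DHX58, was lower (3.57%, beside 1.87% of all genes), and without it 0 of 27 were. With the animal number as a block, 9 were lower (32.1%, beside 16.0% of all genes), adding STAT2, IFIT1, OAS2 and IFI44L, with adjusted p from 0.228 upward. Without DHX58 it was 8 of 27 (29.6%) with the block. With the block and median scaling together, 4 were lower (14.3%, beside 5.02% of all genes) and 1, IRF3, was higher in wild boar (beside 5.47%). In that fit 3 of 27 (11.1%) were lower without DHX58. The count of 5 was 1 without wild boar 1, 3 without wild boar 3, 1 without Rongchang 1, 12 without Rongchang 2 and 2 without Rongchang 3. The share of all genes with a library left out is not given here, so these counts have no background beside them. Counting every member with a row, with no filter on low values, 33 of 36 had a fold change below 0. The share of all genes is not given for that setting, and with the filter 77.9% of all genes already lay below 0.

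**Figure D1:**
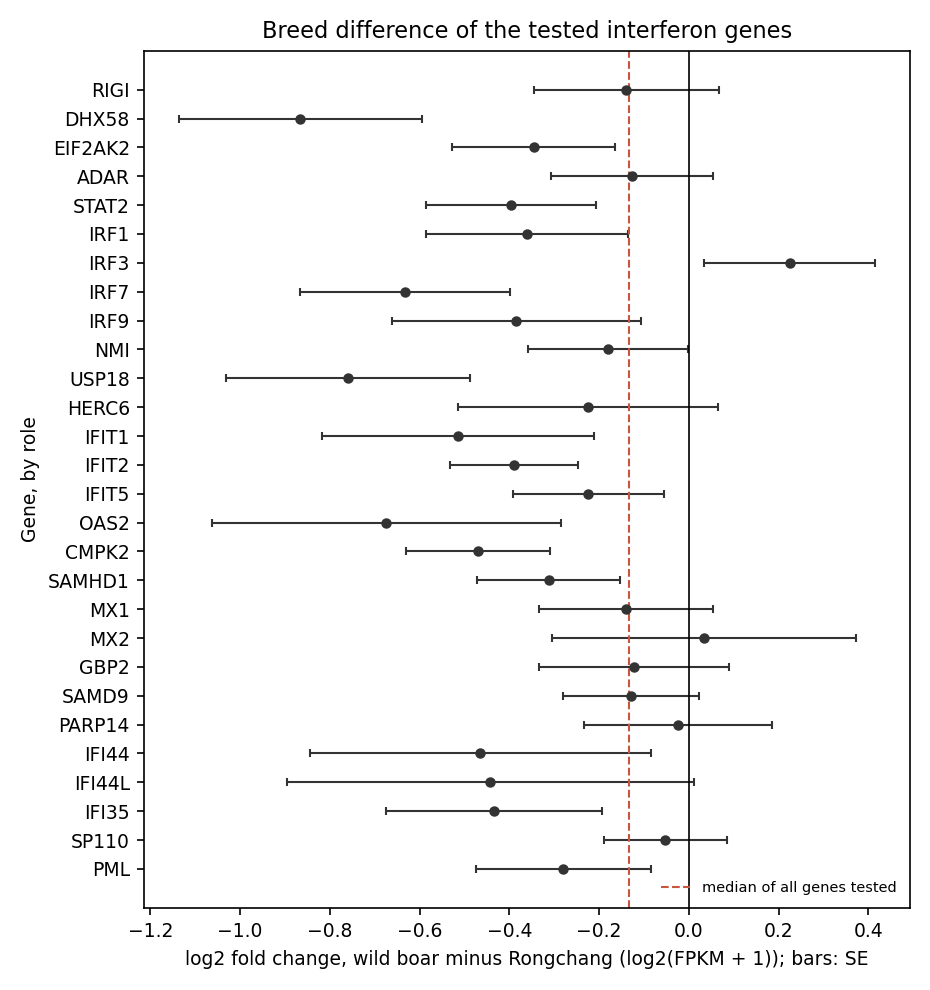
Log2 fold change (wild boar minus Rongchang, log2(FPKM + 1)) of the 28 tested interferon genes in order of role, with limma standard errors as bars, 3 libraries per breed. The dashed line marks the median of all genes tested at −0.13. DHX58, which passed the filter through Rongchang alone, lies lowest at −0.87, and IRF3 lies highest at 0.22.

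The breeds overlapped for most of these genes, and the 3 Rongchang libraries differed among themselves. Rongchang 1 lay above every wild boar for 20 of the 28 genes and Rongchang 3 for 20, beside 30.9% and 45.8% of all genes, while Rongchang 2 did so for 7, beside 39.9% of all genes. For 13 of the 28 (46.4%) both Rongchang 1 and Rongchang 3 stood above all wild boars and Rongchang 2 did not, a pattern held by 8.97% of all genes. Rongchang 2 was the lowest Rongchang library for 20 of the 28, beside 33.5% of all genes. The standard deviation on the log2 scale was larger in Rongchang than in wild boar for 21 of the 28, beside 48.5% of all genes. Its median over the 28 was 0.17 in wild boar and 0.30 in Rongchang, beside 0.217 and 0.215 over all genes tested. The breeds were fully apart for 4 genes (14.3%), DHX58, EIF2AK2, IFIT2 and CMPK2, near the 11.4% of all genes that were fully apart in that direction. Without DHX58, for which the filter fixed this, and other genes that passed through 1 breed, it was 3 of 27 (11.1%), the same as the 11.1% of all genes. These patterns were chosen after the values were seen and carry no test. The 28 genes share the same 6 animals and are not separate observations.

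**Figure D2:**
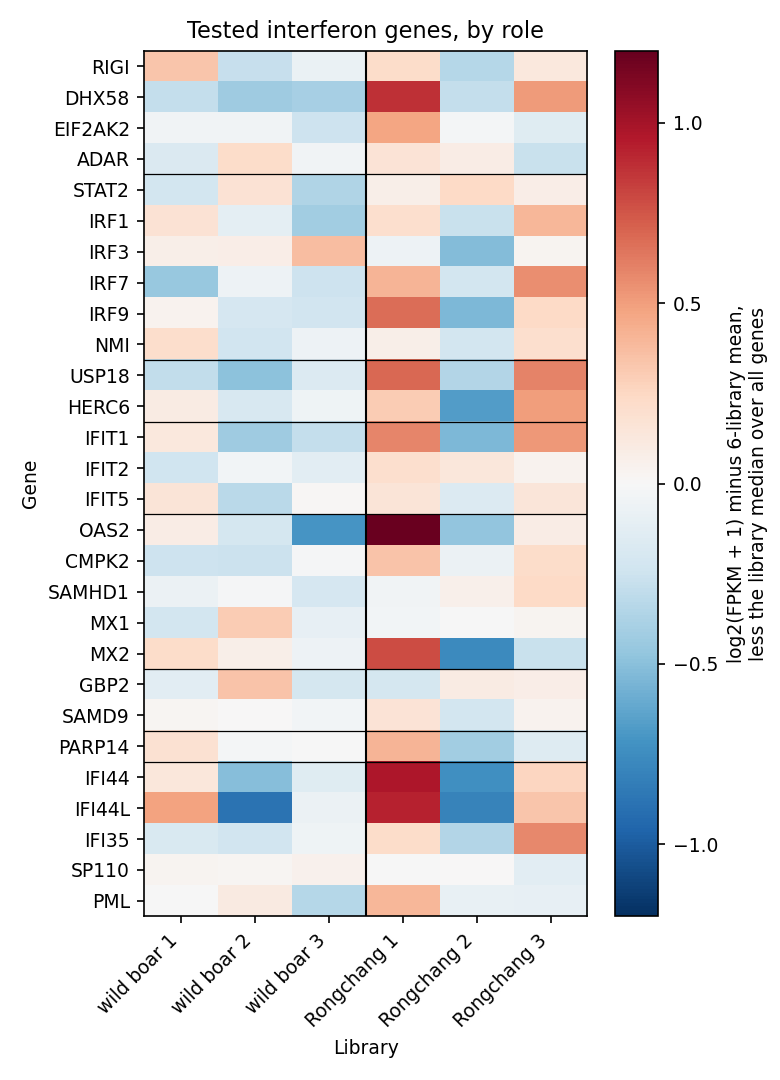
Level of each tested interferon gene in each library, as log2(FPKM + 1) minus the gene's mean over 6 libraries, less the library's median over all genes tested; red is higher and blue lower, and horizontal lines part the roles. Of 28 genes, 15, 9 and 3 lie above 0 in wild boar 1, 2 and 3, against 23, 6 and 22 in Rongchang 1, 2 and 3.

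Among the sensors of viral RNA, DHX58 (LGP2), a regulator of the RIG-I-like receptors, stood at 0.965, 0.888 and 0.836 FPKM in the wild boars and at 3.74, 1.21 and 2.94 FPKM in the Rongchang pigs. All wild boar values lay below the lowest Rongchang value, and Rongchang 2 lay nearest to them. The filter fixed that separation, since DHX58 passed through its Rongchang values alone. The log2 fold change was −0.87 ± 0.27 (SE; adjusted p = 0.784, limma). EIF2AK2 (PKR), the kinase that halts translation when it binds double-stranded RNA, was at 2.58, 2.81 and 2.13 FPKM in wild boar and 4.53, 3.09 and 2.87 FPKM in Rongchang. The breeds did not overlap, by a narrow gap between wild boar 2 and Rongchang 3. RIGI, the RNA helicase that signals through MAVS, was at 3.94, 2.45 and 2.78 FPKM in wild boar and 3.95, 2.51 and 3.97 FPKM in Rongchang, with the lowest values in the libraries numbered 2 of both breeds. ADAR, which edits adenosine to inosine in double-stranded RNA, was the most abundant of this role at 9.03, 13.0 and 10.1 FPKM in wild boar and 12.7, 12.6 and 9.87 FPKM in Rongchang. Its highest value was in wild boar 2, and its fold change of −0.13 turned to 0.03 after median scaling. IFIH1 (MDA5), a sensor of long double-stranded RNA, was below the filter, from 0.732 to 0.915 FPKM in wild boar and from 0.683 to 1.30 FPKM in Rongchang.

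Among the signalling and transcription factors, IRF7, the amplifier of type I interferon production, stood at 1.85, 2.97 and 2.32 FPKM in wild boar and 4.60, 2.77 and 5.63 FPKM in Rongchang. Wild boar 2 lay above Rongchang 2, so the breeds overlapped. The log2 fold change was −0.63 ± 0.23 (SE; adjusted p = 0.789, limma). IRF9, the DNA-binding partner of STAT2, was at 7.06, 6.28 and 5.79 FPKM in wild boar and 12.5, 5.09 and 9.77 FPKM in Rongchang. Rongchang 1 and 3 were the highest libraries for IRF9, and Rongchang 2 was the lowest of the 6. STAT2 showed another order, at 7.996, 11.6 and 7.25 FPKM in wild boar and 10.9, 12.9 and 11.8 FPKM in Rongchang, with Rongchang 2 the highest and wild boar 2 between the Rongchang values. IRF1, an interferon-gamma-responsive factor, ranged from 2.96 to 4.86 FPKM in wild boar and from 3.89 to 6.95 FPKM in Rongchang. NMI, which binds STAT proteins, ranged from 1.14 to 1.73 FPKM in wild boar and from 1.29 to 2.15 FPKM in Rongchang. IRF3, which is activated by phosphorylation and carries the first wave of interferon transcription, was 1 of 2 tested genes with a fold change above 0. It stood at 7.59, 8.25 and 9.76 FPKM in wild boar and 7.53, 5.46 and 8.73 FPKM in Rongchang (log2 fold change 0.22 ± 0.19, SE; adjusted p = 0.857, limma), and wild boar 3 was its highest library. That fold change was 0.06 without Rongchang 2 and 0.13 without wild boar 3.

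The ISG15 system attaches a ubiquitin-like protein to newly made proteins, and USP18 removes it and also restrains signalling at the interferon receptor. USP18 stood at 1.47, 1.30 and 1.75 FPKM in wild boar and 4.30, 1.68 and 4.33 FPKM in Rongchang. Rongchang 1 and 3 were more than 2 FPKM above every wild boar, while Rongchang 2 lay within the wild boar range. The log2 fold change was −0.76 ± 0.27 (SE; adjusted p = 0.789, limma), and it ran from −1.09 to −0.59 when each library was left out in turn. HERC6, a ligase of the HERC family that includes the human ISG15 ligase HERC5, was at 4.83, 4.08 and 4.35 FPKM in wild boar and 6.30, 2.86 and 7.94 FPKM in Rongchang. Its Rongchang values lay on both sides of the wild boar range. HERC5 itself was low, at 0.691, 0.491 and 0.528 FPKM in wild boar and 0.944, 0.402 and 0.353 FPKM in Rongchang. The conjugating enzymes of ISG15, which are not among the 44, had the Rongchang order of USP18 and HERC6, with Rongchang 3 highest and Rongchang 2 lowest, whereas HERC5 was lowest in Rongchang 3. UBE2L6, the E2 enzyme, was at 13.1, 9.76 and 10.1 FPKM in wild boar and 19.6, 9.26 and 26.3 FPKM in Rongchang (log2 fold change −0.59 ± 0.33, SE; adjusted p = 0.794, limma), and its fold change was −0.29 without Rongchang 3 and −0.99 without Rongchang 2. UBA7, the E1 enzyme, was at 3.59, 4.47 and 3.30 FPKM in wild boar and 5.28, 2.89 and 6.57 FPKM in Rongchang. For both enzymes Rongchang 1 and 3 were the highest libraries and Rongchang 2 the lowest of the 6.

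**Figure D3:**
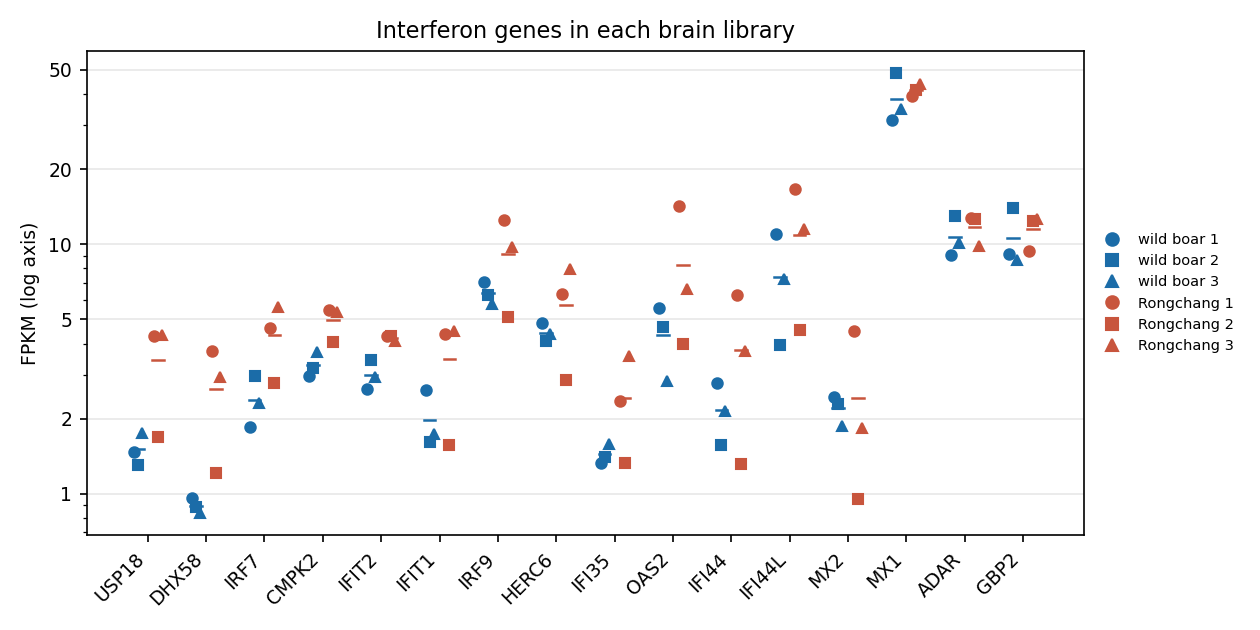
FPKM (log axis) of 16 interferon genes in each library, wild boar in blue on the left and Rongchang in red on the right of each gene, with the symbol giving the animal number and the line the breed mean (n = 3). For USP18, IFIT1, IRF9, HERC6, OAS2 and IFI44 the red circle and triangle (Rongchang 1 and 3) stand above all blue points and the red square (Rongchang 2) does not, whereas MX1, ADAR and GBP2 show the breeds mixed.

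IFIT proteins bind viral RNA or translation factors. IFIT2 was the most even of the IFIT genes within Rongchang, at 2.62, 3.44 and 2.95 FPKM in wild boar and 4.31, 4.28 and 4.10 FPKM in Rongchang. The breeds did not overlap, and Rongchang 2 stood with the other Rongchang libraries. The log2 fold change was −0.39 ± 0.14 (SE; adjusted p = 0.789, limma). IFIT1, which in human cells binds RNA caps that lack 2'-O-methylation, was at 2.61, 1.61 and 1.74 FPKM in wild boar and 4.35, 1.56 and 4.47 FPKM in Rongchang, with Rongchang 2 below all wild boars. IFIT5 was at 8.24, 6.07 and 7.50 FPKM in wild boar and 9.02, 7.33 and 9.61 FPKM in Rongchang, and was the most abundant of the 3. IFIT1, IFIT2 and IFIT5 thus differed in whether Rongchang 2 was low, and reads of similar family members may be split among them in ways FPKM does not show.

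Of the enzymes that act on RNA or nucleotides, CMPK2, a mitochondrial nucleotide kinase, stood at 2.96, 3.20 and 3.72 FPKM in wild boar and 5.47, 4.07 and 5.36 FPKM in Rongchang. The breeds did not overlap (log2 fold change −0.47 ± 0.16, SE; adjusted p = 0.789, limma). RSAD2 (viperin), which makes a chain-terminating nucleotide and lies next to CMPK2 in the RefSeq gene order of Sscrofa11.1, was below the filter, at 1.12, 0.741 and 0.613 FPKM in wild boar and 3.09, 0.339 and 0.641 FPKM in Rongchang. Both genes were highest in Rongchang 1 and lowest among the Rongchang pigs in Rongchang 2, but for RSAD2 wild boar 1 and 2 lay above Rongchang 3. OAS2, which makes the 2',5'-oligoadenylate that activates RNase L, was at 5.54, 4.66 and 2.83 FPKM in wild boar and 14.2, 3.99 and 6.59 FPKM in Rongchang. Its value in Rongchang 1 was 3.55 times that in Rongchang 2, and the log2 fold change of −0.67 ± 0.39 (SE; adjusted p = 0.794, limma) was under 2 standard errors. It was −0.24 without Rongchang 1 and −1.04 without Rongchang 2. SAMHD1, which degrades deoxynucleotides, was at 3.62, 4.11 and 3.28 FPKM in wild boar and 4.10, 4.72 and 5.64 FPKM in Rongchang, where wild boar 2 just passed the lowest Rongchang value. OASL, at 0 to 0.112 FPKM in wild boar and 0.048 to 0.170 FPKM in Rongchang, and the exonuclease gene ISG20, at 0 to 0.529 FPKM in wild boar and 0.160 to 0.625 FPKM in Rongchang, were below the filter and listed at 0 in wild boar 3.

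The dynamin-like GTPases MX1 and MX2, neighbours in the gene order, differed from each other. MX1 was the most abundant of all the interferon genes with a row, at 31.4, 48.7 and 34.8 FPKM in wild boar and 39.3, 41.6 and 44.0 FPKM in Rongchang. Wild boar 2 was its highest library, and its fold change of −0.14 turned to 0.03 after median scaling. MX2 was at 2.43, 2.30 and 1.87 FPKM in wild boar and 4.48, 0.952 and 1.83 FPKM in Rongchang, a 4.71-fold range within Rongchang. Its mean FPKM was lower in wild boar (2.20 ± 0.295) than in Rongchang (2.42 ± 1.84; SD, n = 3 each), while its log2 fold change was 0.03 and turned to −0.31 without Rongchang 2. Of the guanylate-binding GTPases, GBP2 was at 9.14, 14.0 and 8.67 FPKM in wild boar and 9.38, 12.4 and 12.6 FPKM in Rongchang, with the breeds mixed and a fold change of −0.12 that turned to 0.04 after median scaling. GBP1 was at 0.279, 0.483 and 0.147 FPKM in wild boar and 0.357, 0.371 and 0.603 FPKM in Rongchang. SAMD9, a restriction factor of poxviruses, was at 1.72, 1.86 and 1.65 FPKM in wild boar and 2.25, 1.60 and 2.19 FPKM in Rongchang, again with Rongchang 2 the lowest of the 6.

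PARP9 and DTX3L form a complex with ADP-ribosyl transfer and ubiquitin ligase activity, are neighbours in the gene order, and PARP14 lies close to both. All 3 stood near 1 FPKM with the breeds mixed. PARP14 was at 1.26, 1.09 and 1.01 FPKM in wild boar and 1.87, 0.686 and 1.08 FPKM in Rongchang. PARP9 was at 1.22, 0.746 and 0.807 FPKM in wild boar and 1.51, 0.770 and 0.965 FPKM in Rongchang. DTX3L was at 0.763, 0.497 and 0.730 FPKM in wild boar and 0.827, 0.623 and 0.696 FPKM in Rongchang. Rongchang 1 was the highest library for each of the 3.

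IFI44 and IFI44L, neighbouring genes that are among the most strongly interferon-induced transcripts in many tissues, had wide ranges in Rongchang. IFI44L was at 11.0, 3.94 and 7.25 FPKM in wild boar and 16.6, 4.55 and 11.5 FPKM in Rongchang. The libraries numbered 2 were the lowest in both breeds, and each wild boar lay below the Rongchang pig of the same number. Its log2 fold change was −0.44 ± 0.45 without the block (SE; unadjusted p = 0.357) and had an unadjusted p of 0.0132 with it (adjusted p = 0.236, limma). Without the block it was −0.08 with Rongchang 1 left out, −0.11 with wild boar 2 left out and −0.92 with Rongchang 2 left out. IFI44 was at 2.77, 1.56 and 2.14 FPKM in wild boar and 6.27, 1.32 and 3.73 FPKM in Rongchang. Over all 28 genes, 11 (39.3%) were lower in wild boar in each of the 3 same-numbered pairs, near the 38.5% of all genes. PML, the organiser of nuclear bodies, was at 2.66, 3.22 and 1.94 FPKM in wild boar and 4.24, 2.89 and 2.98 FPKM in Rongchang. IFI35, a partner of NMI, ranged from 1.33 to 1.58 FPKM in wild boar and from 1.33 to 3.58 FPKM in Rongchang. SP110, a nuclear body protein, was nearly even, from 0.933 to 1.05 FPKM in wild boar and from 1.02 to 1.14 FPKM in Rongchang, and its fold change of −0.05 turned to 0.03 after median scaling.

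The library with the highest value differed from gene to gene. Wild boar 1, 2 and 3 were the highest of the 6 for 0, 3 and 1 of the 28 genes, beside 6.13%, 16.5% and 7.0% of all genes. Rongchang 1 was the highest for 12 (42.9%), among them OAS2, MX2, IFI44, IFI44L, DHX58 and PML, beside 11.1% of all genes. Rongchang 3 was the highest for 10 (35.7%), among them USP18, IRF7, IFIT1, HERC6, IFI35 and IRF1, near its share of 34.5% over all genes. Rongchang 2 was the highest for 2, beside 24.8% of all genes.

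Of 31 other genes of the pathway, which are not among the 44, 19 had a row and 15 were tested. Of these, 12 (80.0%, beside 77.9% of all genes) had a fold change below 0, at a median of −0.07, above the −0.13 of all genes, and 6 (40.0%, beside 46.4%) lay below 0 after median scaling. In limma 0 passed (adjusted p of at least 0.789), with 0 lower at an unadjusted p under 0.05, beside 5.42% of all genes, and 1, TYK2, with the block (6.67%, beside 16.0%). JAK1, the most abundant of these genes, was highest in the libraries numbered 2 of both breeds, at 26.3, 41.2 and 24.6 FPKM in wild boar and 26.9, 39.2 and 26.4 FPKM in Rongchang. The kinase TYK2 ranged from 5.19 to 6.64 FPKM in wild boar and from 7.55 to 7.92 FPKM in Rongchang, and was even within each breed. Of the 15 tested, it alone had breeds that did not overlap (6.67%, beside 11.4% of all genes). STAT3, a STAT protein best known downstream of interleukin-6, was at 13.0, 12.8 and 11.5 FPKM in wild boar and 15.2, 12.3 and 11.97 FPKM in Rongchang, with the breeds overlapping.

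Of 7 interferon ligands listed, IFNB1 and IFNE had a row, and both were barely detected, while IFNA1, IFNG, IFNK, IFNL1 and IFNL3 had no matched row and were not analysed here. IFNB1 was listed at 0 in all 3 wild boars and in 2 of 3 Rongchang pigs, with 0.122 FPKM in Rongchang 2. IFNE, an interferon of epithelia, was at 0, 0.118 and 0.230 FPKM in wild boar and 0, 0.120 and 0 FPKM in Rongchang. With depth unknown, a listed 0 does not show that a transcript was absent. The interferon-gamma receptor chain IFNGR1 was at 13.0, 10.9 and 14.9 FPKM in wild boar and 13.0, 12.6 and 15.3 FPKM in Rongchang. It alone of 6 receptor genes listed had a row. IFNAR1 and IFNAR2 of the type I receptor, IFNGR2, IFNLR1 and IL10RB had no matched row, nor did TBK1 and SOCS3. Of the 6 sensing and adaptor genes with a row, TRAF3 and MAVS, the most abundant, were fairly even. TRAF3 was at 13.0, 14.9 and 12.8 FPKM in wild boar and 15.0, 14.5 and 13.4 FPKM in Rongchang. MAVS, which relays RIG-I signals at mitochondria, was at 6.37, 5.10 and 4.67 FPKM in wild boar and 6.43, 5.85 and 6.36 FPKM in Rongchang. STING1, the adaptor of the DNA sensor CGAS, varied more within each breed, from 1.47 to 3.15 FPKM in wild boar and from 1.48 to 3.55 FPKM in Rongchang. IKBKE, a kinase that phosphorylates IRF3 and IRF7, was below the filter, at 0.856, 0.345 and 0.397 FPKM in wild boar and 0.894, 1.48 and 1.16 FPKM in Rongchang, and its breeds did not overlap. Among regulators, IRF2, which binds the same DNA element as IRF1, was at 7.23, 6.47 and 7.16 FPKM in wild boar and 7.08, 6.45 and 6.75 FPKM in Rongchang. PIAS1, a SUMO ligase, was at 3.22, 3.37 and 3.77 FPKM in wild boar and 3.32, 3.77 and 3.49 FPKM in Rongchang. Of IFNGR1 and the adaptor and regulator genes given here, IKBKE was the only one whose breeds did not overlap.

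**Figure D4:**
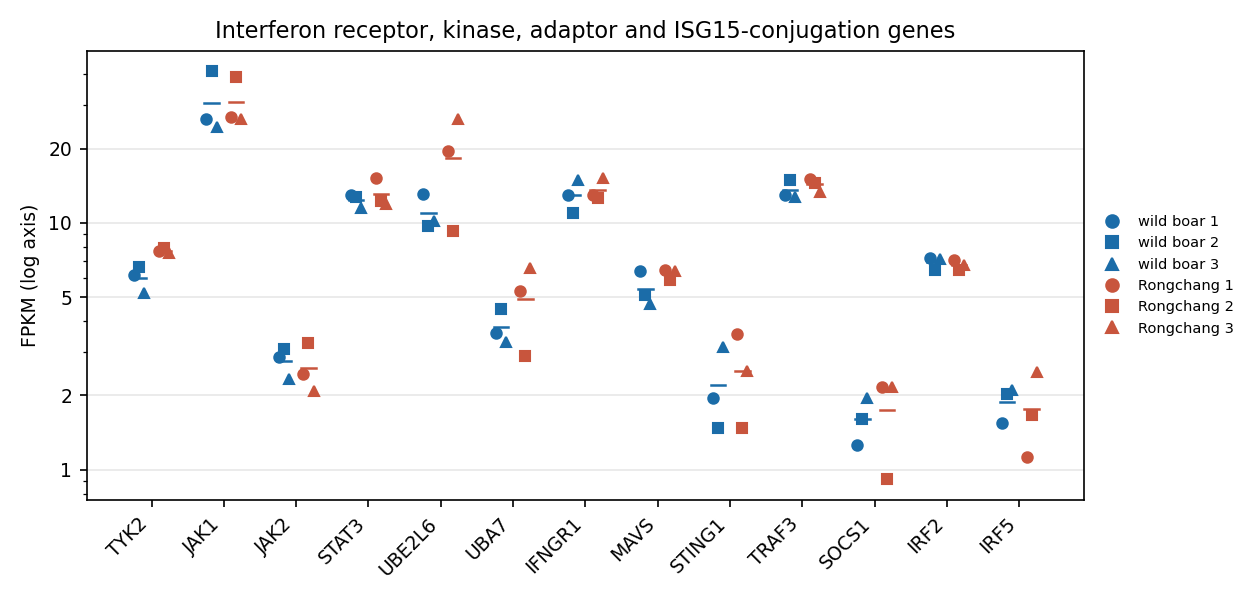
FPKM (log axis) of 13 interferon-pathway genes outside the 44, wild boar in blue on the left and Rongchang in red on the right of each gene, with the symbol giving the animal number and the line the breed mean (n = 3). UBE2L6 and UBA7 are highest in Rongchang 1 and 3, TYK2 is apart between the breeds, and JAK1 is highest in the libraries numbered 2.

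Markers of other cells were described in the same libraries. Of 30 markers tested, 2 (ALDH1L1 and CD8A) were lower in wild boar at an unadjusted p under 0.05 in limma, beside 5.42% of all genes. CD8A could be tested only through its Rongchang values, so the filter fixed its direction. Without genes of that kind ALDH1L1 alone remained, beside 5.18% of all genes. With the block 6 of the 30 were lower, beside 16.0% of all genes. With the block and median scaling together, ALDH1L1 and 1 T and NK marker were lower, beside 5.02% of all genes. In that fit 1 astrocyte, 1 microglia, 2 endothelial and 1 fibroblast or meninges marker were higher in wild boar, beside 5.47%. ALDH1L1, a marker of astrocytes, was at 5.62, 3.83 and 2.84 FPKM in wild boar and 7.73, 6.78 and 7.61 FPKM in Rongchang, without overlap (log2 fold change −0.75 ± 0.21, SE; adjusted p = 0.766, limma). The other 3 astrocyte markers with a row overlapped, with fold changes of −0.39 for SLC1A2, −0.04 for CLU and 0.11 for GFAP. The summed level of the 4, of 5 listed, was 1657 to 2442 FPKM in wild boar and 1911 to 2351 FPKM in Rongchang. CLU, at a mean of 1510 FPKM over the 6 libraries, made up most of that sum. Of 7 markers of T and NK cells, 4 had a row, and their summed level was 2.44 to 3.09 FPKM in wild boar and 4.06 to 5.81 FPKM in Rongchang, without overlap. Among them CD8A of cytotoxic T cells was at 0.463 ± 0.0386 FPKM in wild boar and 1.06 ± 0.0556 FPKM in Rongchang (SD, n = 3 each). CD8A passed the filter through Rongchang alone, which fixed its separation. For the other 3, CD3D, CD2 and NKG7, the breeds overlapped. Of all genes tested, 11.4% were fully apart and lower in wild boar, and no such share is given for summed levels. Rongchang 2, at 4.69 FPKM, was not the lowest Rongchang library in the T and NK sum, nor in that of 3 B cell markers. It was the lowest for 4 fibroblast and meninges markers, which summed to 25.2, 16.6 and 29.9 FPKM in Rongchang. In wild boar these summed to 28.5, 17.9 and 23.1 FPKM. The sum of 3 oligodendrocyte markers was 1715, 1449 and 1513 FPKM in Rongchang and 1882, 1130 and 1464 FPKM in wild boar. The summed level of 5 microglia markers with a row, of 7 listed, was 40.5 to 88.8 FPKM in wild boar and 52.0 to 87.8 FPKM in Rongchang, with the libraries numbered 2 lowest in each breed. That of 3 neutrophil and monocyte markers of 5 was 5.27 to 8.67 FPKM in wild boar and 4.47 to 10.5 FPKM in Rongchang. That of 2 endothelial markers of 5 was 16.2 to 21.5 FPKM in wild boar and 11.98 to 16.7 FPKM in Rongchang. HBB of red blood cells was at 273, 57.7 and 212 FPKM in wild boar and 137, 66.9 and 189 FPKM in Rongchang. The choroid plexus transcript TTR was at 34.2 FPKM in wild boar 3 and at most 3.01 FPKM in the other libraries. No marker with a row of astrocytes, T and NK cells, microglia or endothelium was listed at 0. The part of these cells in the interferon values was not tested, and in bulk tissue fewer cells of a type and less RNA per cell cannot be told apart.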

How the data were processed

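The deposited table gives 1 FPKM value per gene and library for 18225 Ensembl identifiers. Its header names no unit, and FPKM was judged from the named tools and the values. TopHat2 2.0.11, Cufflinks 2.2.1 and Cuffdiff are listed, per the submitters' processing notes, with no role for each. Libraries were poly(A)-selected and dUTP-stranded, per the labels' protocols. Build, annotation and counting strand: not given in the sources used here. No coordinates are printed, and a gene with an overlapping antisense transcript is uncertain. Depth per library is unknown.

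Symbols came from a table of Ensembl identifiers and names, which matched 10937 identifiers (60.0%). Of the 36 members with a row, 34 were found in the RefSeq gene order of Sscrofa11.1, used for neighbours only. Breeds were compared with limma 3.58.1 (R 4.3.3) on log2(FPKM + 1), as a two-sided test with trended variance, adjusted by Benjamini-Hochberg over the 13152 genes that reached 1 FPKM in 3 or more libraries, at a threshold of 0.05. The procedure was tested on simulated data. Alternatives were a pseudocount of 0.1, no filter, a mean of at least 5 FPKM, median scaling, the animal number as a block, and leaving out libraries. A gene planned among the other pathway genes is not reported here. The members and lists were chosen with earlier results of these data known.

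Same-numbered libraries of the breeds deviated together from their breed means (correlations of 0.28, 0.59 and 0.37, all above the bound of 0.1), against −0.45 to 0.12 for other pairs. The pairing rests on the data alone, since the labels do not say what a number marks, and the highest other pair also passed the bound.

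Values per library are given for members with an unadjusted p under 0.05, the 3 most abundant of each role and any that passed the filter through 1 breed. RSAD2 and MX2, given per library, and the genes given as ranges fall outside that rule, and RSAD2 and MX2 were chosen after their values were seen. TYK2, STAT3, STING1, IKBKE, SNAP25, HBB, TTR, ALDH1L1 and CD8A were likewise chosen after their values were seen.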

Additional observations from a re-analysis of the deposited data

How the results depend on the processing

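Under 13 alternatives, of which leaving out both libraries numbered 2 was chosen after seeing the data, 0 interferon genes passed in limma, and the lowest adjusted p of any was 0.228. The number with an unadjusted p under 0.05, 5 in the comparison as reported, was 0 with a mean of at least 5 FPKM (10 members left), 1 after median scaling, 9 with the replicate block and 13 with both libraries numbered 2 left out, and ran from 1 to 12 when each library was left out. The number below 0, 26 of 28, was 9 of 10 with a mean of at least 5 FPKM and 25 to 27 when each library was left out, and the median ran from −0.37 to −0.18. For the fits with a mean of at least 5 FPKM or with libraries left out, shares of all genes are not given here. The number of other pathway genes below 0, 12 of 15, was 7 of 8 with a mean of at least 5 FPKM and 6 after median scaling, with or without the block, and ran from 9 to 11 when each library was left out. Calls over all genes, 1 as reported and 1 with the block, were 3 with a pseudocount of 0.1, 0 with a mean of at least 5 FPKM, 3 with both libraries numbered 2 left out and 1 to 4 when each library was left out. After median scaling, with or without the block, the fold changes of ADAR (0.032), GBP2 (0.036), MX1 (0.029), PARP14 (0.065) and SP110 (0.035) turned above 0. With each library left out, those of HERC6 (−0.58 to 0.026), MX2 (−0.31 to 0.44) and PARP14 (−0.20 to 0.18) took both signs, and that of MX2 was −0.33 with both libraries numbered 2 left out. The cause was not tested. For 21 of 28 members the fold change moved by over 1.5 times or changed sign with some 1 library left out. The share of all genes is not given for this count. Fold changes near 0 pass that limit by small moves, as for SP110 (−0.073 to −0.028). The 1 gene called as reported was also the 1 called with the block.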
